A study of Homo sapiens with 6 samples.

Results

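The genes described here are 9 long noncoding RNAs that many cell lines hold in quantity, chosen by name for their place in the cell: the nuclear RNAs MALAT1, NEAT1 and KCNQ1OT1, the snoRNA host genes GAS5 and SNHG1, the largely cytoplasmic RNAs NORAD and CYTOR, and PVT1 and MIR22HG. They are 9 of the 61860 genes in the counts, where 15790 genes are annotated as long noncoding RNA (lncRNA) in GENCODE release 29. All 9 have a row, 8 have a count above 0, and those 8 passed the filter on low counts. The measurement is RNA sequencing of A498, a cell line from a human clear cell kidney carcinoma, in 3 libraries with a knockdown of the receptor phosphatase PTPRZ1 (PTPRZ_Si) and 3 control libraries (PTPRZ_nc). The labels name siRNA as the means of knockdown for PTPRZ_Si and a plasmid for PTPRZ_nc, and both groups share the same entry of transfection and infection. An effect of the means of delivery and one of the knockdown cannot be told apart in this design.

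Long noncoding RNAs are transcribed and often spliced like mRNAs but carry no long reading frame that is translated. Some act where they are made, as scaffolds of nuclear bodies or as silencers of neighbouring genes. Others leave the nucleus and bind proteins there, and still others matter mainly for the small RNAs cut from their introns. Because many of them start beside, inside or opposite another gene, counts made without regard to strand can mix them with that gene, and the main overlaps are given below with their own counts.

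PTPRZ1 itself had 0 counts in all 6 libraries, so the knockdown could not be checked on its target and every direction rests on the labels. Total counts were 13726908 to 21469746 per library. The labels do not say whether the libraries are separate cultures; the p-values cover the spread among these libraries alone, and that spread may be technical. Of 10 markers of A498 and renal carcinoma, 9 passed the filter on low counts. Of these 9, 5 were called higher and 3 lower in PTPRZ_Si (edgeR), where 27.4% of all tested genes were called. The summed level of the 10 markers was 3376 to 3509 CPM in PTPRZ_Si libraries and 3484 to 3500 CPM in PTPRZ_nc libraries. Markers were called in both directions, so the sum does not show that single markers were stable. VIM, a marker of this list, was called lower, with values given further below. The 10 markers of other cell types summed to 26.3 to 29.8 CPM in PTPRZ_Si and 34.9 to 46.0 CPM in PTPRZ_nc, with PTPRC and CD3E at 0. Most of that sum was COL1A1, a collagen that fell in PTPRZ_Si (log2 fold change -0.67, edgeR adjusted p = 5.63e-05). The other 3 tested markers went the other way without passing: CD14 (log2 fold change 1.15, edgeR adjusted p = 0.0861), PECAM1 (0.89, edgeR adjusted p = 0.0586) and DES (0.24, edgeR adjusted p = 0.532), each with a mean under 3 CPM in both groups. Without both libraries numbered 2, 1 marker was called higher. The part of these shifts in the lncRNA results was not tested. In bulk libraries, fewer cells of a kind and less RNA per cell cannot be told apart.

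Of the 8 lncRNAs with counts, 3 passed the test: KCNQ1OT1 was higher in PTPRZ_Si, and GAS5 and CYTOR were lower. MALAT1, NEAT1, NORAD, SNHG1 and PVT1 did not pass, and MIR22HG had no counts to test. The test was edgeR's quasi-likelihood test over 15476 genes, with a call at a Benjamini-Hochberg adjusted p of at most 0.05. It called 27.4% of all tested genes, 14.0% higher and 13.4% lower in PTPRZ_Si. Among the 1762 tested lncRNA genes it called 10.2%, 6.98% higher and 3.18% lower. The counts called in each gene list below are to be read beside these shares. The called lncRNAs of this set thus amount to 3 of 8, with 1 higher and 2 lower, set beside these backgrounds as a description without a test. The libraries of PTPRZ_Si and PTPRZ_nc did not overlap for the same 3 genes, against 40.8% of all tested genes. The median tested gene had a level of 21.5 CPM (counts scaled to library size, with TMM factors), and the median tested lncRNA gene had 1.45 CPM. All 8 lncRNAs with counts lay above that lncRNA median.

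**Figure D1:**
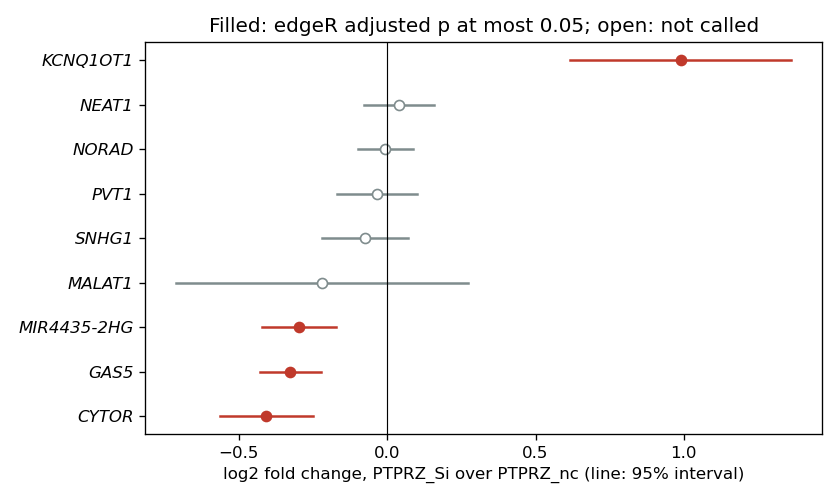
Log2 fold change of PTPRZ_Si over PTPRZ_nc (horizontal axis) for the 8 lncRNAs with counts and for MIR4435-2HG, the near-copy of CYTOR. Points are edgeR estimates over 3 libraries a group, lines their 95% intervals, and filled points passed at an adjusted p of at most 0.05. KCNQ1OT1 at 0.99 stands to the right of 0, CYTOR at -0.41, GAS5 at -0.33 and MIR4435-2HG at -0.30 to the left, and the intervals of the other 5 cross 0.

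Levels were first compared between genes per length, as CPM per kilobase (kb) of annotated exon. NORAD was the most counted per kb, at 53.2 ± 0.282 CPM per kb in PTPRZ_Si and 53.5 ± 2.84 CPM per kb in PTPRZ_nc (SD, n = 3 each). GAS5 followed with 25.0 ± 0.812 CPM per kb in PTPRZ_Si and 31.4 ± 0.642 CPM per kb in PTPRZ_nc. Then came SNHG1 at 10.5 and 11.1 CPM per kb, PVT1 at 7.95 and 8.14, NEAT1 at 3.27 and 3.19, and CYTOR at 1.76 and 2.34 CPM per kb in PTPRZ_Si and PTPRZ_nc. MALAT1, at 0.338 CPM per kb in PTPRZ_Si and 0.396 CPM per kb in PTPRZ_nc, and KCNQ1OT1, at 0.0810 and 0.0412 CPM per kb, ended the order. No neighbours in this order overlapped in any of the 6 libraries. The lengths are those of all annotated exons merged, so a gene whose main transcripts use few of its exons, such as CYTOR, comes out low on this scale. By mean CPM without length, NORAD stood at percentile 95.9 of the tested genes, GAS5 at 84.8, NEAT1 at 78.4, PVT1 at 66.3, SNHG1 at 64.3, CYTOR at 61.7, KCNQ1OT1 at 30.2 and MALAT1 at 24.1. MALAT1 and KCNQ1OT1 still lay above the median tested lncRNA gene. Against all tested genes, however, the name "abundant" does not hold in these counts for MALAT1, KCNQ1OT1 or MIR22HG. This describes the counts and not the RNA in the cells. The length used for MALAT1 includes 7205 bases that the antisense gene TALAM1 spans in RefSeq, and neighbours of MIR22HG also had few counts. Both are described below, and their part in these levels was not tested.

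**Figure D2:**
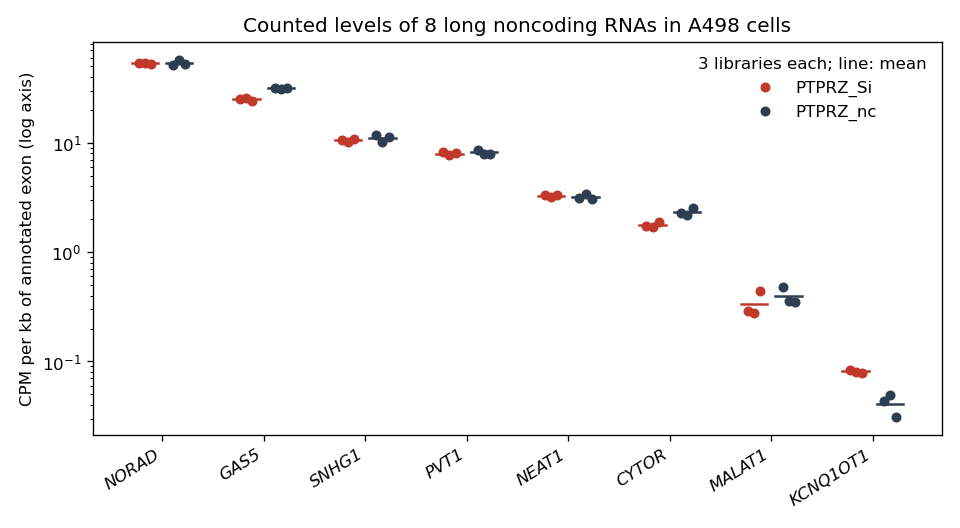
Level per kb of annotated exon on a log axis for the 8 lncRNAs with counts, ordered by level, with a point for each library and a line for each group mean. PTPRZ_Si stands left of PTPRZ_nc for each gene. The order runs from NORAD, at 53.2 CPM per kb in PTPRZ_Si and 53.5 in PTPRZ_nc, to KCNQ1OT1, at 0.0810 in PTPRZ_Si and 0.0412 in PTPRZ_nc, and no gene overlaps the next.

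KCNQ1OT1 (ENSG00000269821; GRCh38 chromosome 11 from 2608328 to 2699994, minus strand) is a nuclear RNA made from the paternal chromosome at an imprinting centre inside KCNQ1, and it silences neighbouring genes on that chromosome. It is annotated as a single exon of 91667 bases. Its counts were 111, 152 and 155 in PTPRZ_Si libraries 1, 2 and 3, and 68, 62 and 53 in PTPRZ_nc libraries 1, 2 and 3. Every PTPRZ_Si library was above every PTPRZ_nc library, although its total counts differ. The level was 7.43 ± 0.269 CPM in PTPRZ_Si and 3.78 ± 0.868 CPM in PTPRZ_nc (SD, n = 3 each). This was a 1.98-fold rise with a 95% interval of 1.53 to 2.57 (log2 fold change 0.99, SE 0.177, edgeR adjusted p = 0.000449). Among the lncRNAs of this set it was the only gene called higher.

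The exon of KCNQ1OT1 lies almost wholly opposite introns of KCNQ1, which encodes a potassium channel subunit and spans chromosome 11 from 2444684 to 2849110 on the plus strand. They share 121 exon bases. On the strand of KCNQ1, 4 short annotated RNAs of 116 to 464 bases also lie within the exon and had 0 counts. Counting took no account of strand, so unspliced KCNQ1 RNA in this stretch would be counted as KCNQ1OT1, and the 2 sources cannot be told apart in these counts. KCNQ1, counted over its exons whether spliced or not, had 26, 43 and 43 counts in PTPRZ_Si and 34, 37 and 30 in PTPRZ_nc. Its groups overlapped, and its change of -0.07 on the log2 scale (SE 0.264, edgeR adjusted p = 0.883) has a 95% interval of -0.63 to 0.49. The share of counts in genes annotated as sense intronic, where reads from introns are counted, was 0.0189%, 0.0197% and 0.0202% in PTPRZ_Si and 0.0190%, 0.0187% and 0.0199% in PTPRZ_nc, and these ranges overlap. The part of intronic RNA in the KCNQ1OT1 result was not tested beyond these values.

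Of 12 listed genes around KCNQ1OT1, several of them imprinted, 9 were tested, 0 were higher and 2 were lower in PTPRZ_Si, a share near the 27.4% called over all tested genes, with a median log2 fold change of -0.14 against 0.0010 over all tested genes. In edgeR 0 were higher at an unadjusted p under 0.05 as well, and DESeq2 and limma-voom also called 0 higher. The 2 called genes were OSBPL5, an oxysterol-binding protein (31.0 ± 1.03 CPM in PTPRZ_Si and 36.9 ± 1.14 CPM in PTPRZ_nc, edgeR adjusted p = 0.0100), and CD81, a tetraspanin (312.5 ± 7.62 CPM in PTPRZ_Si and 343.8 ± 15.0 CPM in PTPRZ_nc, edgeR adjusted p = 0.0226). Without PTPRZ_Si replicate 1 or 2, 1 gene was called lower, and with no filter on low counts 4 were. CDKN1C, the cell cycle inhibitor silenced by KCNQ1OT1 and the next coding gene, at a distance of 183.2 kb, was counted 103 times in all and did not pass (log2 fold change -0.14, edgeR adjusted p = 0.875), too few counts to place it. TRPM5, on the other side, had 2 counts.

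MALAT1 (ENSG00000251562; chromosome 11 from 65497688 to 65506516, plus strand) is a nuclear RNA of splicing speckles. It ends in a triple helix formed when RNase P cuts off a small tRNA-like RNA. It had 37, 51 and 84 counts in PTPRZ_Si and 73, 43 and 58 counts in PTPRZ_nc. The groups overlapped, with the highest CPM in PTPRZ_nc library 1 (4.26 CPM) and the next highest in PTPRZ_Si library 3 (3.93 CPM). The level was 2.99 ± 0.820 CPM in PTPRZ_Si and 3.50 ± 0.662 CPM in PTPRZ_nc (SD, n = 3 each). The log2 fold change was -0.22 (SE 0.233, edgeR adjusted p = 0.537), and its 95% interval of -0.71 to 0.27 leaves the direction undetermined at this depth.

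The antisense RNA TALAM1 is transcribed from the opposite strand of MALAT1. In RefSeq it spans 7205 of the 8829 exonic bases of MALAT1, or 81.6%, and a further antisense gene, AP000769.2, covers 396 bases near the start of MALAT1. By the default of the counting program, a read that lies in exons of 2 genes is given to neither, and without strand this applies to both directions. TALAM1 had 4 counts over the 6 libraries, 2, 0 and 1 in PTPRZ_Si and 1, 0 and 0 in PTPRZ_nc, and AP000769.2 had 0. The count of MALAT1 is therefore a count of the RNA outside these overlaps, as far as the annotation the authors used holds them, and what it would be with strand was not tested. Neighbouring protein-coding genes had many counts: LTBP3 had 24140 in all and FRMD8 had 6642. Of the 17 protein-coding genes within 200 kb, 4 had under 100 counts.

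Proteins that make the end of MALAT1 include METTL16, a methyltransferase that binds its triple helix, and the RNase P and RNase Z enzymes. Of 12 tested genes in that list, 2 were higher, 1 was lower and 9 were not called in PTPRZ_Si, with a median log2 fold change of 0.02. METTL16 rose to 56.0 ± 2.07 CPM in PTPRZ_Si, against 41.1 ± 2.86 CPM in PTPRZ_nc (SD, n = 3 each, log2 fold change 0.45, edgeR adjusted p = 6.47e-05). ELAC2, which encodes RNase Z, rose to 160.9 ± 2.62 CPM in PTPRZ_Si, against 135.0 ± 4.74 CPM in PTPRZ_nc (log2 fold change 0.25, edgeR adjusted p = 0.000417). RPP30, a protein subunit of RNase P, fell (log2 fold change -0.37, edgeR adjusted p = 0.00318).

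NEAT1 (ENSG00000245532; chromosome 11 from 65422774 to 65445540, plus strand) is the scaffold of paraspeckles, nuclear bodies that hold RNA-binding proteins. A short and a long transcript share its start, and counts over the gene do not tell them apart. It had 1078, 1511 and 1617 counts in PTPRZ_Si and 1210, 1063 and 1300 counts in PTPRZ_nc. Scaled to depth the groups overlapped, at 75.1, 72.5 and 75.6 CPM in PTPRZ_Si and 70.7, 77.7 and 69.3 CPM in PTPRZ_nc. The log2 fold change was 0.04 (SE 0.0564, edgeR adjusted p = 0.661) with a 95% interval of -0.08 to 0.16. No gene on the opposite strand overlaps the exons of NEAT1 in GENCODE 29, so the lack of strand does not touch its value there. FRMD8, its neighbour at 9.25 kb, did not pass either (log2 fold change -0.01, edgeR adjusted p = 0.924).

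Of the 22 listed paraspeckle proteins 21 were tested, with 3 higher, 3 lower and 15 not called in PTPRZ_Si and a median log2 fold change of 0.04. Over all tested genes 27.4% were called. HNRNPA1, a splicing repressor, rose to 563.6 ± 14.7 CPM in PTPRZ_Si, against 475.0 ± 23.0 CPM in PTPRZ_nc (SD, n = 3 each, edgeR adjusted p = 0.000245). CPSF6, a subunit of the cleavage factor that selects poly(A) sites, and the chromatin remodeller SMARCA4 rose as well (log2 fold change 0.19 and 0.16, edgeR adjusted p = 0.00598 and 0.00760). HNRNPH3 fell to 102.6 ± 1.63 CPM in PTPRZ_Si, against 126.1 ± 2.81 CPM in PTPRZ_nc (edgeR adjusted p = 0.000112). NUDT21, the partner of CPSF6, and RBMX fell too (log2 fold change -0.21 and -0.15, edgeR adjusted p = 0.0171 and 0.0141). Without PTPRZ_Si replicate 1 or 3, 1 protein of the list was called lower. The core proteins NONO, SFPQ and PSPC1, named after their values were seen, had log2 fold changes of -0.01, 0.09 and 0.12 and did not pass (edgeR adjusted p = 0.924, 0.0878 and 0.144).

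GAS5 (ENSG00000234741; chromosome 1 from 173863900 to 173868882, minus strand) carries box C/D snoRNAs in its introns, which guide methylation of ribosomal RNA. Its spliced RNA begins with a 5′ terminal oligopyrimidine (TOP) tract and is degraded by nonsense-mediated decay when it is translated, so that it builds up when growth stops. It had 1302, 1955 and 1880 counts in PTPRZ_Si and 1985, 1524 and 2145 counts in PTPRZ_nc. Scaled to depth these were 90.8, 93.8 and 87.9 CPM in PTPRZ_Si and 115.9, 111.4 and 114.4 CPM in PTPRZ_nc. Every PTPRZ_Si library was below every PTPRZ_nc library. The fold of PTPRZ_Si over PTPRZ_nc was 0.797 with a 95% interval of 0.743 to 0.856 (log2 fold change -0.33, SE 0.0484, edgeR adjusted p = 7.43e-05). The median gene called lower had a log2 fold change of -0.32. Tested against a change of 1.2-fold with edgeR's glmTreat, GAS5 did not pass (adjusted p = 0.269).

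In RefSeq, 9 snoRNA genes share 61 to 86 bases each with the merged exons of GAS5, which include introns kept in some transcripts, and cover 676 bases or 18.6% of them. The 2 of these that could be matched to a row in the counts were at 0. GAS5-AS1, on the opposite strand, shares 42 exon bases with it and had 78 counts over the 6 libraries, against 10791 for GAS5. GAS5-AS1 had 6, 9 and 11 counts in PTPRZ_Si and 12, 8 and 32 in PTPRZ_nc, and did not pass (log2 fold change -1.15, SE 0.468, edgeR adjusted p = 0.0796). ZBTB37, a zinc finger gene that starts on the opposite strand within GAS5, shares 0 exon bases and was higher in PTPRZ_Si, at 17.7 ± 2.31 CPM against 13.9 ± 0.951 CPM in PTPRZ_nc (SD, n = 3 each, edgeR adjusted p = 0.0280). SERPINC1, the nearest protein-coding gene toward higher coordinates, had 22 counts. Among GENCODE transcripts, no word of 50 bases of GAS5 occurs in a transcript of another gene. The 9 snoRNA genes above were placed by RefSeq, and this search did not count the bases they share with GAS5.

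**Figure D3:**
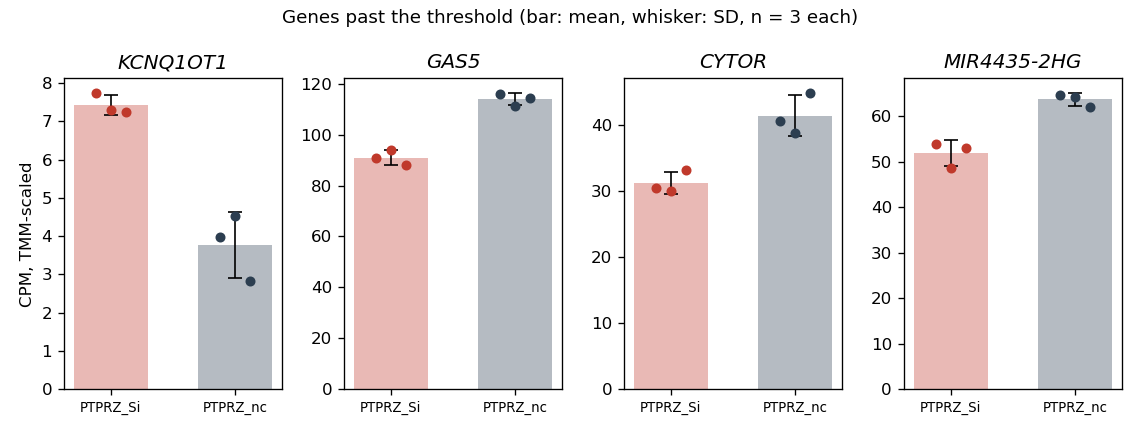
Level in CPM of the 3 lncRNAs of the set that passed the test and of MIR4435-2HG, with a bar at the mean, a whisker of 1 SD and a point for each library, PTPRZ_Si left of PTPRZ_nc. KCNQ1OT1 is higher in PTPRZ_Si (7.43 CPM against 3.78 CPM in PTPRZ_nc), and GAS5 (90.9 against 113.9 CPM), CYTOR (31.2 against 41.4 CPM) and MIR4435-2HG (51.8 against 63.7 CPM) are lower. The groups do not overlap in any panel.

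SNHG1 (ENSG00000255717; chromosome 11 from 62851988 to 62855914, minus strand), the other snoRNA host of the set, had 571, 801 and 864 counts in PTPRZ_Si and 757, 525 and 792 in PTPRZ_nc. At 39.6 ± 1.01 CPM in PTPRZ_Si and 41.6 ± 2.98 CPM in PTPRZ_nc (SD, n = 3 each) the groups overlapped. Its change of -0.08 on the log2 scale (SE 0.0686, edgeR adjusted p = 0.452) has a 95% interval of -0.22 to 0.07. The snoRNAs inside SNHG1 that have a row in the counts were at 0. SLC3A2, the heavy chain of amino acid transporters, starts 0.187 kb away on the opposite strand and did not pass (819.3 ± 2.16 CPM in PTPRZ_Si and 769.3 ± 81.6 CPM in PTPRZ_nc, edgeR adjusted p = 0.228). WDR74, on the other side, had a log2 fold change of 0.06 (edgeR adjusted p = 0.675).

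The 2 snoRNA hosts were set beside 23 other host genes, of which 19 were tested. In PTPRZ_Si 2 were higher, 4 were lower and 13 were not called, with a median log2 fold change of -0.04. The share called was 27.4% over all tested genes and 10.2% over tested lncRNA genes. DANCR rose to 13.5 ± 0.503 CPM in PTPRZ_Si, against 9.31 ± 1.11 CPM in PTPRZ_nc (SD, n = 3 each, log2 fold change 0.53, edgeR adjusted p = 0.00229), and SNHG4 rose to 26.7 ± 0.608 CPM, against 20.8 ± 1.48 CPM in PTPRZ_nc (edgeR adjusted p = 0.00268). SNHG12 fell to 19.4 ± 0.577 CPM in PTPRZ_Si, against 25.4 ± 2.02 CPM in PTPRZ_nc (edgeR adjusted p = 0.00232). ZFAS1 and SNHG11 fell too (log2 fold change -0.34 and -0.44, edgeR adjusted p = 0.00914 and 0.0314). The last gene called lower was EPB41L4A-AS1, named after its values were seen (-0.29, edgeR adjusted p = 0.0453). The count of 4 lower was 2 without PTPRZ_Si replicate 1, 2 or 3 and without PTPRZ_nc replicate 1 or 2, and 2 with DESeq2.

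**Figure D4:**
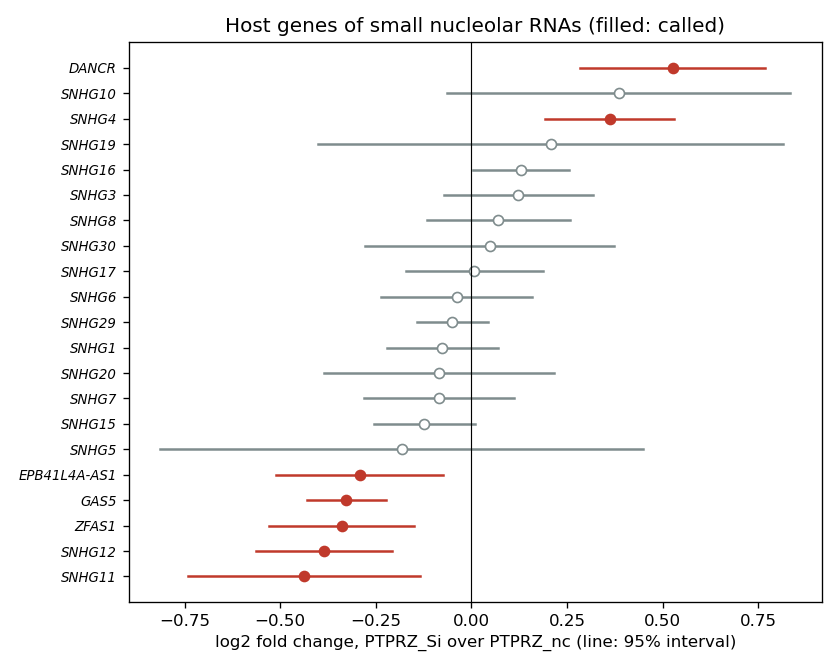
Log2 fold change of PTPRZ_Si over PTPRZ_nc (horizontal axis) for GAS5, SNHG1 and the 19 other tested host genes of snoRNAs, ordered by value, with 95% intervals. Filled points passed at an edgeR adjusted p of at most 0.05. DANCR at 0.53 and SNHG4 at 0.36 lie to the right, GAS5 at -0.33 lies among the 5 filled points on the left, and SNHG1 at -0.08 is open.

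Most genes tied to the making and decay of GAS5 did not pass, which also holds for all tested genes, of which 27.4% were called. Of 14 tested proteins that build snoRNA particles, 3 were higher, 0 were lower and 11 were not called in PTPRZ_Si, with a median log2 fold change of -0.0036. At an unadjusted p under 0.05 edgeR had 2 lower, and DESeq2 and limma-voom called 0 lower. The 3 were the assembly factors RUVBL2, an ATPase (113.3 ± 2.26 CPM in PTPRZ_Si and 91.8 ± 1.72 CPM in PTPRZ_nc, SD, n = 3 each, edgeR adjusted p = 0.000119), RPAP3, a chaperone partner (log2 fold change 0.29, edgeR adjusted p = 0.00338), and ZNHIT6 (0.23, edgeR adjusted p = 0.0311). Of 16 tested factors of nonsense-mediated decay, 2 were higher, 1 was lower and 13 were not called, with a median of -0.0076. SMG1, the kinase of UPF1, rose by 0.18 on the log2 scale (edgeR adjusted p = 0.00581). UPF3B fell by 0.31 on the log2 scale with overlapping groups (edgeR adjusted p = 0.0392), a call lost without PTPRZ_Si replicate 1 or 3, without PTPRZ_nc replicate 2 or 3 and with limma-voom. Without PTPRZ_Si replicate 3, 1 factor was called higher.

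Of 22 tested TOP mRNAs other than those of ribosomal proteins, 4 were higher, 3 were lower and 15 were not called in PTPRZ_Si, with a median log2 fold change of 0.04. Among all tested genes 27.4% were called. VIM, the intermediate filament vimentin, fell to 788.1 ± 28.9 CPM in PTPRZ_Si, against 1181 ± 47.1 CPM in PTPRZ_nc (SD, n = 3 each, edgeR adjusted p = 8.69e-09). EIF3F and NAP1L1, a translation factor and a histone chaperone, fell less (log2 fold change -0.26 and -0.12, edgeR adjusted p = 0.000817 and 0.0477). HNRNPA1 rose, as given above, as did the translation factors EIF3L and EIF4B (log2 fold change 0.17 and 0.13, edgeR adjusted p = 0.0122 and 0.0305). TPT1, the fourth gene called higher and named after its values were seen, had a log2 fold change of 0.16 (edgeR adjusted p = 0.0331). The count of 4 higher was 2 without PTPRZ_Si replicate 2 or 3 or PTPRZ_nc replicate 1, and 1 without PTPRZ_Si replicate 1.

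NORAD (ENSG00000260032; chromosome 20 from 36045622 to 36050960, minus strand) is an unspliced RNA that binds Pumilio proteins such as PUM2, repressors of mRNAs, through many copies of their recognition element. The element was searched as the letters TGTANATA on the sense strand of the GENCODE 29 transcript of 5339 bases, with overlapping matches allowed. The transcript held 15 matches, or 2.81 per kb, and 18 matches with the shorter TGTANAT. Of 15257 tested genes with a transcript, 3 others held as many in their longest transcript. Among the 4075 tested genes with a transcript of at least 5 kb the median was 0.117 per kb, and 0 others had as many per kb. KCNQ1OT1 held 9 matches in its longest transcript, NEAT1 6 and SNHG1 1, and MALAT1, GAS5, PVT1 and CYTOR 0. The windows below, from GRCh38 chromosome 20, minus strand, are shown because they carry the property NORAD is known for; capitals mark the element. A match is a run of letters and not a measured binding site.
NORAD element 2 (chr20:36049803-36049832): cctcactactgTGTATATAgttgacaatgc
NORAD element 3 (chr20:36049702-36049731): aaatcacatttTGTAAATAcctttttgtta
NORAD element 5 (chr20:36049492-36049521): tgtgtatatagTGTACATAaaggacagacg
NORAD element 11 (chr20:36047971-36048000): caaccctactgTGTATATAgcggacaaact

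NORAD had 4074, 5949 and 6040 counts in PTPRZ_Si and 4716, 4145 and 5210 in PTPRZ_nc. Scaled to depth, these were 284.0, 285.6 and 282.6 CPM in PTPRZ_Si and 275.5, 302.9 and 277.9 CPM in PTPRZ_nc. The PTPRZ_Si libraries lay within the range of the PTPRZ_nc libraries. Its change of -0.0062 on the log2 scale (SE 0.0435, edgeR adjusted p = 0.938) has a 95% interval of -0.10 to 0.09, that is 0.934 to 1.06-fold. Without PTPRZ_nc replicate 2, the highest library, the estimate was 0.0355, and it did not pass there either. No gene overlaps the exons of NORAD on the opposite strand. However, 35.3% of its 50-base words occur in transcripts of other genes, 22.7% in OVCH1-AS1 alone, and reads that fit several places are left out by the default of the counting program, and how much this lowers its level was not tested.

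PUM2 was higher in PTPRZ_Si, at 199.4, 209.2 and 201.0 CPM against 165.5, 154.6 and 175.8 CPM in PTPRZ_nc (log2 fold change 0.30, SE 0.0494, edgeR adjusted p = 0.000238). Its groups did not overlap. Of the 8 tested partners of NORAD, 1 was higher, 2 were lower and 5 were not called, with a median log2 fold change of -0.07. RBMX, an RNA-binding protein that joins NORAD in the nucleus, and TOP1, topoisomerase 1, were the 2 lower (log2 fold change -0.15 and -0.14, edgeR adjusted p = 0.0141 and 0.0481). The count of 2 lower was 1 without PTPRZ_Si replicate 1 or 2 or PTPRZ_nc replicate 2 and 0 without PTPRZ_Si replicate 3 or PTPRZ_nc replicate 1 or 3, and DESeq2 and the replicate block called 1. Of the nearest protein-coding genes, EPB41L1, a membrane skeleton protein at 40.5 kb, rose to 152.9 ± 3.29 CPM in PTPRZ_Si, against 114.8 ± 5.65 CPM in PTPRZ_nc (log2 fold change 0.41, edgeR adjusted p = 6.32e-06), and CNBD2 had 8 counts.

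CYTOR (ENSG00000222041; chromosome 2 from 87454781 to 87636740, plus strand) is a mainly cytoplasmic RNA linked to cell movement and the cytoskeleton. It had 436, 626 and 709 counts in PTPRZ_Si and 695, 530 and 840 in PTPRZ_nc. Scaled to depth these were 30.4, 30.0 and 33.2 CPM in PTPRZ_Si and 40.6, 38.7 and 44.8 CPM in PTPRZ_nc. Every PTPRZ_Si library was below every PTPRZ_nc library. The fold of PTPRZ_Si over PTPRZ_nc was 0.753 with a 95% interval of 0.676 to 0.840 (log2 fold change -0.41, SE 0.0742, edgeR adjusted p = 0.000519). Against a change of 1.2-fold it did not pass (glmTreat of edgeR, adjusted p = 0.109).

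CYTOR has a near-copy on the same chromosome, MIR4435-2HG (ENSG00000172965; chromosome 2 from 111036776 to 111523376, minus strand), and the counts of both are uncertain to the extent that reads fit both. The transcripts CYTOR-201, of 529 bases, and MIR4435-2HG-203, of 514 bases, aligned over 515 columns with 509 identical bases, 5 mismatches and 1 gap, or 98.8% identity. Over all their annotated transcripts, 16.0% of the 50-base words of CYTOR occur in MIR4435-2HG and 21.6% of those of MIR4435-2HG occur in CYTOR. The stretch below is shown because it gives a view of how few bases a read has to tell these genes apart. Capitals mark the bases that differ, and each stretch crosses exon borders, so that it lies within chr2:87455572-87521282 (plus strand) for CYTOR and chr2:111429545-111494958 (minus strand) for MIR4435-2HG in GRCh38.
CYTOR: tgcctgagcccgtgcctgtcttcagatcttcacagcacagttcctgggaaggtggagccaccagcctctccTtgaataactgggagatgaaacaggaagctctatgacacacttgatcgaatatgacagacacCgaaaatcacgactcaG
MIR4435-2HG: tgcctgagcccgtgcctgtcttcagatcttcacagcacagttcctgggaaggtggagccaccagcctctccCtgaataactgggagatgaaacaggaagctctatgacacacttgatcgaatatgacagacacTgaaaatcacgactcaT

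MIR4435-2HG had 773, 1012 and 1134 counts in PTPRZ_Si and 1107, 879 and 1164 in PTPRZ_nc. Scaled to depth these were 53.9, 48.6 and 53.0 CPM in PTPRZ_Si and 64.7, 64.2 and 62.1 CPM in PTPRZ_nc, with no overlap between groups. The log2 fold change was -0.30 (SE 0.0596, edgeR adjusted p = 0.00116). Reads that fit both copies are left out by the default of the counting program, as far as the aligner reported both places, and whether any were given to the wrong copy was not tested. On the opposite strand, BCL2L11, which encodes the cell death protein BIM, shares 727 exon bases with MIR4435-2HG and went the other way, at 71.1 ± 1.33 CPM in PTPRZ_Si and 56.5 ± 3.59 CPM in PTPRZ_nc (SD, n = 3 each, log2 fold change 0.33, edgeR adjusted p = 0.000456). Of its nearest protein-coding genes beyond overlaps, BUB1, a mitotic checkpoint kinase, fell (log2 fold change -0.15, edgeR adjusted p = 0.0356), and ANAPC1 did not pass (-0.09, edgeR adjusted p = 0.235).

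Genes that overlap CYTOR held few counts. By the counting default given above, a read in exons of both genes goes to neither. These counts therefore do not show how many reads CYTOR lost. LINC01943, on the opposite strand, shares 405 exon bases and had 16 counts over the 6 libraries. NCAL1 (AC133644.3), on the same strand, shares 436 exon bases in GENCODE 29 and had 145 counts, and did not pass (log2 fold change -0.40, SE 0.437, edgeR adjusted p = 0.544). In RefSeq the whole span of NCAL1, introns included, covers 17308 exon bases of CYTOR, or 97.8%. The nearest protein-coding genes, PLGLB1 and PLGLB2, had 45 and 98 counts. The duplicated loci also each hold a gene for the same mature microRNA, miR-4435, printed here 5′ to 3′ from RefSeq (GRCh38.p14) with its seed, bases 2 to 8, in capitals. The hairpin genes MIR4435-1 and MIR4435-2 both had 0 counts, and libraries of this kind are not made to hold mature microRNAs.
hsa-miR-4435 (chr2:87629764-87629785, plus strand, and chr2:111321061-111321082, minus strand): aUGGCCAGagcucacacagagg

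The promoters of CYTOR and MIR4435-2HG were read from RefSeq (GRCh38.p14; 250 bases before to 50 after the annotated start), because both genes were called lower. The letters TGAGTCA and TGACTCA, each the reverse complement of the other and known as the element of the AP-1 transcription factors, were searched. CYTOR had 2 matches, which begin 19 and 9 bases before its start, and MIR4435-2HG had 1, which begins at base 41 after its start. The window of MIR4435-2HG ends before the place of CYTOR's second match, so 2 against 1 does not show that the loci differ. At least 1 match was present in 1738 of 35116 RefSeq promoters (4.95%) and in 609 of 16082 promoters of tested genes (3.79%), and 2 or more in 78 and 33 of them. The promoters of GAS5, SNHG1, MALAT1, NORAD and MIR22HG held no match, and those of NEAT1, PVT1 and KCNQ1OT1 were not in the table. The windows around the matches are shown with the matches in capitals. The 60 bases of MIR4435-2HG equal the first 60 of CYTOR, as the loci are copies, so these matches are not independent, and a match does not show that a factor binds.
CYTOR (chr2:87455358-87455474, plus strand): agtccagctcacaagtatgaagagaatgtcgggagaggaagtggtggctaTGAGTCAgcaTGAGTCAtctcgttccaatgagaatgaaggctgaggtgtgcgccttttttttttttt
MIR4435-2HG (chr2:111495112-111495171, minus strand): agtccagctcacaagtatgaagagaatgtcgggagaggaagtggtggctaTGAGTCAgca

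MIR22HG (ENSG00000186594; chromosome 17 from 1711493 to 1717174, minus strand), the host of miR-22 and a known target of stress signals, had 0 counts in all 6 libraries. A count of 0 allows up to 3 counts, which is 0.0527 CPM over the 3 PTPRZ_Si libraries with 56880799 counts and 0.0607 CPM over the 3 PTPRZ_nc libraries with 49419883 counts, as a limit of counting error only. The zero is not shown to be silence, since several neighbours were also nearly empty. Of the 12 protein-coding genes within 200 kb, 6 had under 100 counts over the 6 libraries. PRPF8, a splicing factor of every cell, had 12, TLCD2 had 10, SCARF1 and RILP had 2 each, SERPINF2 had 31 and SLC43A2 had 90. Beyond them PITPNA had 19446 counts and RPA1 had 18482. WDR81, which starts inside MIR22HG on the opposite strand and shares 0 exon bases with it, had 2391. Of the 50-base words of MIR22HG transcripts 1.04% occur in another gene, all in MIR22. Why the stretch holds few counts was not tested.

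**Figure D5:**
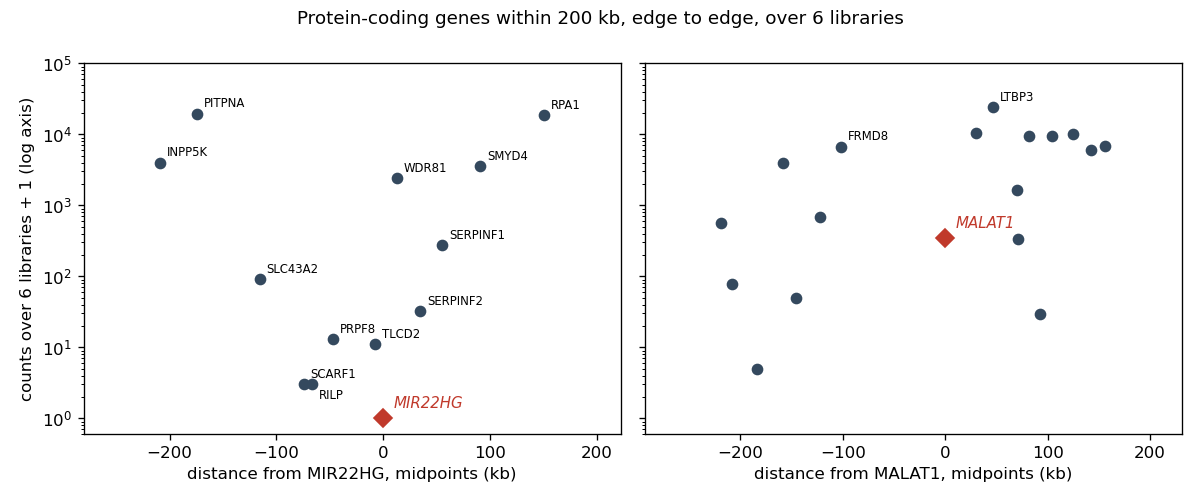
Counts over the 6 libraries plus 1, on a log axis, of the protein-coding genes within 200 kb of MIR22HG (left) and of MALAT1 (right), against the distance between gene midpoints in kb. The diamond is the lncRNA. Around MIR22HG at 0 counts, PRPF8, TLCD2, SCARF1 and RILP have 2 to 12 counts, and around MALAT1, FRMD8 and LTBP3 have 6642 and 24140.

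PVT1 (ENSG00000249859; plus strand) starts 53.1 kb beyond MYC and shares regulatory elements with it. It had 645, 880 and 938 counts in PTPRZ_Si and 801, 598 and 818 in PTPRZ_nc, and at 43.7 ± 1.37 CPM in PTPRZ_Si and 44.7 ± 1.80 CPM in PTPRZ_nc (SD, n = 3 each) the groups overlapped. For PVT1 the change was -0.04 on the log2 scale (SE 0.0633, edgeR adjusted p = 0.734), with a 95% interval of -0.17 to 0.10. MYC did not pass either, at 145.4 ± 5.31 CPM in PTPRZ_Si and 155.8 ± 14.7 CPM in PTPRZ_nc (log2 fold change -0.10, SE 0.0591, edgeR adjusted p = 0.221). On the opposite strand only a pseudogene with 5 counts and an snRNA copy with 0 share exon bases with PVT1, 111 and 63 of 5493. CDKN1A, which encodes the cell cycle inhibitor p21 and is set beside MIR22HG and NEAT1 as a gene of stress responses, was higher, at 402.7 ± 6.75 CPM in PTPRZ_Si and 361.8 ± 1.22 CPM in PTPRZ_nc (edgeR adjusted p = 0.00459).

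Patterns over the 6 libraries were compared by the root mean square difference of log2 CPM, centred on each gene's mean. NEAT1 and NORAD were the closest pair at 0.0345, SNHG1 and PVT1 followed at 0.0495, and GAS5 was nearest to CYTOR at 0.0981. MALAT1 was nearest to SNHG1 at 0.247. KCNQ1OT1 stood apart, at 0.510 from its nearest, NEAT1, and at 0.755 from CYTOR. These are descriptions over 6 libraries that share the same depth factors. The difference between the groups was not removed, so the distances in part restate the fold changes given above.

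A list of 41 other well-known lncRNAs gave 29 tested genes, with 2 higher, 4 lower and 23 not called in PTPRZ_Si and a median log2 fold change of 0.0026 against 0.04 over all tested lncRNA genes. PURPL rose to 80.2 ± 3.40 CPM in PTPRZ_Si, against 52.2 ± 4.10 CPM in PTPRZ_nc (SD, n = 3 each, log2 fold change 0.62, edgeR adjusted p = 1.37e-06). FTX, a gene of the X inactivation centre, rose to 32.2 ± 1.77 CPM in PTPRZ_Si, against 25.8 ± 2.68 CPM in PTPRZ_nc (edgeR adjusted p = 0.00976). CHASERR, which restrains its neighbour CHD2, fell to 23.9 ± 0.651 CPM in PTPRZ_Si, against 30.1 ± 1.82 CPM in PTPRZ_nc (edgeR adjusted p = 0.00315), and DLEU2, the host of miR-15a and miR-16-1, fell by 0.68 on the log2 scale (edgeR adjusted p = 0.00585). The genes called lower also include MIR4435-2HG, given above, and NKILA, which had 7, 11 and 10 counts in PTPRZ_Si and 26, 15 and 21 in PTPRZ_nc. NKILA passed the filter on low counts through PTPRZ_nc, where it is high, so its call is not read as a result. Without PTPRZ_Si replicate 1, 1 gene was called higher.

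Of 20 tested subunits and adaptors of the nuclear exosome, which degrades many nuclear lncRNAs, 2 were higher, 3 were lower and 15 were not called in PTPRZ_Si, with a median log2 fold change of -0.04. The share called over all tested genes was 27.4%. ZFC3H1, which links poly(A) RNA to the exosome, rose to 71.2 ± 4.72 CPM in PTPRZ_Si, against 58.3 ± 2.13 CPM in PTPRZ_nc (SD, n = 3 each, edgeR adjusted p = 0.00201), and the nuclease DIS3 rose by 0.17 on the log2 scale (edgeR adjusted p = 0.0435). The subunits EXOSC8 and EXOSC3 and the helicase MTREX fell (log2 fold change -0.35, -0.27 and -0.20, edgeR adjusted p = 0.00369, 0.0270 and 0.0346). The count higher was 1 without each of the 6 libraries in turn, with DESeq2 and with the replicate block, and the count lower was 1 without PTPRZ_Si replicate 1 or 3. Of 18 RNAs that mostly lack a poly(A) tail, 5 were tested and 6 were at 0 in all libraries, among them RN7SK and RMRP. H1-2, a histone, was higher and RN7SL1, the signal recognition particle RNA, lower with overlapping groups (edgeR adjusted p = 0.0114 and 0.0333). The H1-2 call was lost without PTPRZ_Si replicate 2 or 3 or PTPRZ_nc replicate 1, and the RN7SL1 call without PTPRZ_Si replicate 1 or 3 or PTPRZ_nc replicate 2 and with DESeq2 and limma-voom.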

How the data were processed

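RNA of 6 A498 libraries was sequenced after a directional NEBNext preparation, per the labels' protocols. How ribosomal RNA was removed is not stated in the sources used here. Per the file headers, the authors deposited raw counts of read pairs for each gene. The same headers name featureCounts 2.0.1 over exons of Ensembl release 107 and no strand option. Build hg38 is that of the submitters' processing notes.

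Differences were computed by edgeR 4.0.16 under R 4.3.3 (filterByExpr, TMM, glmQLFit and glmQLFTest, 2-sided, Benjamini-Hochberg adjustment over 15476 genes), and the test was checked on simulated counts. Alternatives used DESeq2 1.42.0 and limma 3.58.1. Groups and replicate numbers came from the labels. Within groups, no library pair was as close as sampling noise allows (chi-square over its degrees of freedom 2.15 to 5.71). Coordinates and exon overlaps are those of GENCODE 29 (GRCh38); the spans of TALAM1 and the promoter and microRNA sequences are those of RefSeq. Transcripts were aligned with Biopython 1.88.

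The lncRNAs and lists were chosen with earlier results of these data known. The genes named are the lncRNAs, genes that share their exons with at least 10 counts, the nearest protein-coding gene on each side, MIR4435-2HG, MYC and CDKN1A, and for each list and direction the 3 called genes of smallest p. Others were named after their values were seen. A few genes chosen by this rule go unreported here. Symbols came from a name table for 42054 genes and from GENCODE 29 for 16371. Intervals and limits cover these libraries only.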

Additional observations from a re-analysis of the deposited data

How the results depend on the processing

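KCNQ1OT1, GAS5 and CYTOR kept their direction and their call under RLE scaling, DESeq2, limma-voom, both filters on low counts, the replicate block and the leaving out of each library or of both libraries numbered 2, and none of the other 5 was called in a setting where it was tested. MALAT1 was not tested with the filter at 5 CPM. Over these settings the log2 fold change was 0.81 to 1.14 for KCNQ1OT1, -0.37 to -0.30 for GAS5 and -0.46 to -0.35 for CYTOR. Against a change of 1.2-fold (glmTreat of edgeR), GAS5 at -0.33 and CYTOR at -0.41 no longer passed (adjusted p = 0.269 and 0.109), and KCNQ1OT1 did (adjusted p = 0.00451). The log2 fold change of NORAD, near 0, turned to 0.0030 with the filter set at a mean of 5 CPM, to 0.0355 without PTPRZ_nc replicate 2 and to 0.0339 without both libraries numbered 2, and ran from -0.0316 to 0.0355 without each library in turn. The cause was not tested. Without each library, 3182 to 4425 genes were called over all genes, 4101 with the replicate block and 3455 with DESeq2, against 4243. The replicate block changed no call of a lncRNA of the set. Deviations from the group means had correlations of 0.0224, 0.0405 and 0.0129 for libraries with the same number. Those for unlike numbers ran from -0.0296 to 0.0068. All are small, and with 3 libraries a group they do not settle whether the numbers pair the libraries. Of 353 counts for lists and values for MIR4435-2HG, 290 stayed within 1.5 times or kept their call and 62 moved, and MIR4435-2HG lost its call against 1.2-fold (adjusted p = 0.574). Counts that moved by over 1.5 times without a single library stand beside each list above, apart from proteins that build snoRNA particles, where 1 was called lower without PTPRZ_nc replicate 2, against 0. DESeq2 called 2 snoRNA hosts lower (against 4), 1 partner of NORAD lower (2), 1 exosome gene higher (2) and 0 RNAs without a poly(A) tail lower (1). With limma-voom 0 decay factors (1) and 0 RNAs without a poly(A) tail (1) were lower. With no filter on low counts 1 protein of snoRNA particles was lower (0), 1 exosome gene higher (2) and 4 genes around KCNQ1OT1 lower (2). The filter at 5 CPM left 2 well-known lncRNAs lower (4) and 1 partner of NORAD lower (2), and the replicate block 1 partner of NORAD lower (2) and 1 exosome gene higher (2). With both libraries numbered 2 left out, the counts were 2 hosts lower (4), 1 partner of NORAD lower (2), 1 protein of snoRNA particles lower (0), 2 RNase P and Z genes lower (1), 1 exosome gene higher (2) and 5 lower (3), 1 gene around KCNQ1OT1 higher (0) and 1 lower (2), and 1 marker of other cell types higher (0). MALAT1 rested on 37 to 84 counts a library and had the widest interval of the tested lncRNAs of the set.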
